A study of Mus musculus with 12 samples.

Results

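The response of control mouse embryonic fibroblasts (MEFs) to nutrient withdrawal was measured by RNA-Seq in 6 of the 12 libraries of the series. These cells expressed shRenilla, a short hairpin RNA against Renilla luciferase, which has no target in the mouse genome. Of the 6 libraries, 3 were from cells in full medium (FM; high-glucose DMEM with fetal calf serum, antibiotics and glutamine) and 3 from cells starved for 2 h (Starv) in a medium without serum and without amino acids. The other 6 libraries came from MEFs expressing shBruce, a hairpin against Birc6, in the same pair of media with 3 replicates each. The hairpins were delivered by retrovirus, and each arm is a line of 1 hairpin, so the lines stand for no independent derivations of MEFs. Serum and amino acids were withdrawn together, so responses to the loss of each cannot be told apart. The other components of the starvation medium, glucose included, are not given for these libraries in the sources used here. Earle's balanced salt solution, which has less glucose than high-glucose DMEM and lacks its vitamins, is named for other starvation experiments of the study. These are the genetic screen, the flow cytometry and microscopy of autophagy, and a lysosomal enzyme assay after 2 h of starvation. A change in glucose or vitamins between the media therefore cannot be told apart from the withdrawals that the labels name. Nothing in the labels says that replicates were separate cultures, and the p-values then measure only the spread between these libraries, which may be technical.

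Cells read amino acid supply in part through uncharged tRNAs, which activate the kinase GCN2. Phosphorylation of the initiation factor eIF2alpha then slows translation in general but favours translation of the transcription factor ATF4, which induces amino acid transporters, biosynthetic enzymes and tRNA synthetases. Serum supplies growth factors and lipids that keep ERK, AKT, SRF and YAP signalling active. On their loss, immediate-early and cytoskeletal genes lose their drive, while FOXO factors, held out of the nucleus by AKT, can act. Amino acid loss also inactivates mTORC1, which restrains autophagy and the lysosomal regulators TFEB and TFE3.

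The shRenilla libraries held 14600792 to 18510540 counts in 24062 gene symbols. Normalized counts, used throughout, are counts scaled by library size with TMM factors. Birc6, the target of the other hairpin, had normalized counts of 2787 to 5062 in the 6 shRenilla libraries and 703 to 1391 in the 6 shBruce libraries, so the ranges did not overlap and matched the labels. Of 10 fibroblast markers, 9 stood above 50 normalized counts in every shRenilla library, with a sum of 147100 to 152707 in FM and 124536 to 136963 in Starv. Epithelial markers summed to between 1.9 and 8.07, endothelial markers to between 36.7 and 64, and macrophage markers to between 72.4 and 104 normalized counts. The macrophage sum was carried by Cd68, at 64.7 to 102. The sum of neural markers, carried by Tubb3 and Map2, was 438 to 504 in FM and 676 to 722 in Starv, and its part in the results was not tested. The library FM 2 and the library Starv 3 stood apart from the other replicates of their medium. Across 12050 genes, the deviation of these libraries from the mean of their group had a Spearman rho with transcript length of -0.48 and -0.64, and their part in the results is given below by leaving them out. The rho was 0.16 to 0.51 in the other 4 shRenilla libraries. The log2 fold change itself had a rho of 0.19 with length across these genes.

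Starvation was followed by a broad change in mRNA levels. Among 12154 genes tested, 2061 passed an adjusted p of 0.05 in edgeR's quasi-likelihood test with Benjamini-Hochberg adjustment, which is 17.0%. This fit pooled the spread of all 12 libraries, and all SEs and adjusted p-values given here come from it. An SE printed beside shRenilla counts is therefore not the spread of those counts alone. Of the 2061 genes, 1178 (9.69% of the genes tested) were higher in Starv and 883 (7.27%) were lower. Genes higher in Starv took 3.19% to 3.29% of all counts in the FM libraries and 6.2% to 6.32% in the Starv libraries. Genes lower in Starv took 10.8% to 11.2% in FM and 7.04% to 7.24% in Starv. The median log2 fold change was 0.88 among higher genes, -0.70 among lower genes and -0.01 among all genes tested. A log2 change of at least 1 was reached by 470 higher and 256 lower genes, at least 2 by 77 and 54, and at least 3 by 16 and 14. For 6370 genes (52.4%), the 3 Starv libraries did not overlap the 3 FM libraries, and each of the 2061 called genes was among them. An exact permutation test of 3 libraries against 3 cannot go below p = 0.1 and gave this value for all called genes described here.

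The share of called genes that were higher was 57.2%, but 71.2% with upper-quartile scaling and 47.0% after trends with length and GC content were removed. The count of calls also depended on which libraries set the spread. With only the 6 shRenilla libraries it was 5013, and with FM 2 and Starv 3 left out, which leaves 2 libraries a medium, it was 703. Leaving out any 1 of the shRenilla libraries gave 1149 to 1499 calls.

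**Figure D1:**
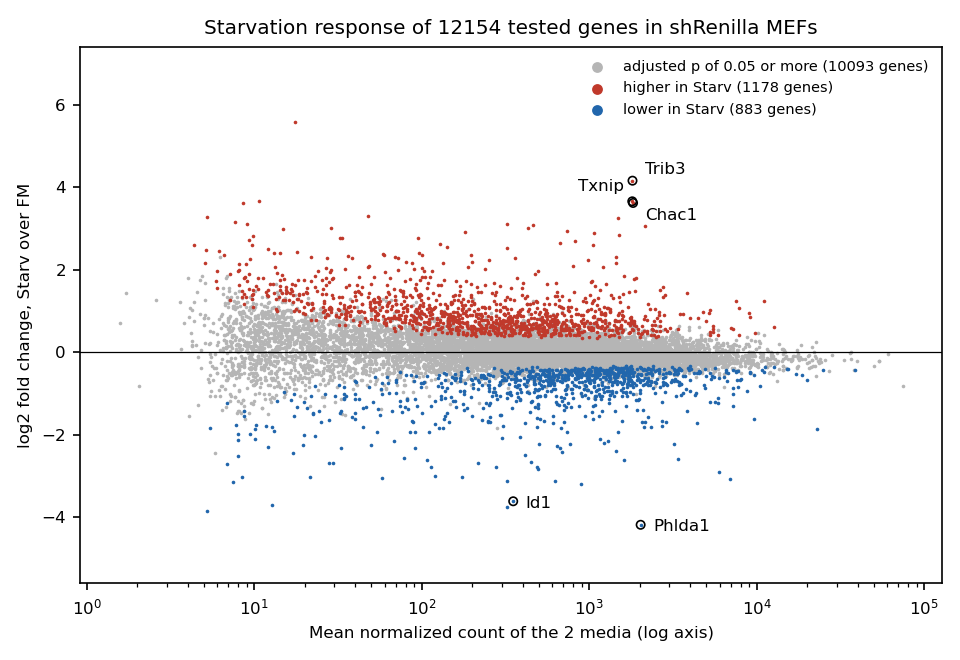
Each point is 1 of the 12154 tested genes, with the mean normalized count of both media on a log axis and the log2 fold change of Starv over FM in shRenilla MEFs on the other axis. The 1178 genes higher in Starv are red, the 883 lower genes blue, and Trib3, Chac1, Txnip, Phlda1 and Id1 lie at the edges of the cloud at log2 fold changes from -4.18 to 4.16.

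Genes of the ATF4 pathway had the highest median change of the 25 gene lists examined. The lists were written with earlier results of these data known, so this rank is only a description. Of 19 tested regulators and effectors of the ATF4 pathway, 18 were higher in Starv and 0 were lower. Over all genes, 9.69% were higher and 7.27% lower. The median log2 fold change of the list was 1.61 against -0.01 for all genes. The higher count of the list stayed at 18 without any 1 library and with only the shRenilla libraries, and was 16 without FM 2 and Starv 3. Trib3 encodes a pseudokinase that binds AKT and ATF4, and lies on chr2:152337422-152344032 (minus strand, GRCm38). Its normalized counts were 182, 208 and 184 in FM and 3223, 3224 and 3851 in Starv. All Starv libraries were far above all FM libraries, with a 17.9-fold rise (log2 fold change 4.16, SE 0.19, adjusted p = 5.1e-08).

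Chac1 encodes a glutathione-degrading enzyme and lies on chr2:119351229-119354381 (plus strand). It had 286, 271 and 269 normalized counts in FM and 3116, 3288 and 3728 in Starv, a 12.3-fold rise (log2 fold change 3.62, SE 0.13, adjusted p = 6.6e-09). Herpud1, a component of endoplasmic reticulum-associated degradation, went from 442, 476 and 462 to 3652, 3667 and 4275, a log2 fold change of 3.07 (SE 0.13). Sesn2, the leucine sensor upstream of mTORC1, went from 145, 189.6 and 177 to 1310, 1323 and 1273, a log2 fold change of 2.93 (SE 0.37). The groups did not overlap for any of these genes, which holds for every called gene. Ddit3, which encodes the transcription factor CHOP, had 369, 395 and 347 normalized counts in FM and 2489, 2434 and 3054 in Starv, a log2 fold change of 2.84 (SE 0.18).

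The head of the pathway is the factor itself. Atf4 itself had 4926, 5371 and 4863 normalized counts in FM and 9943, 10006 and 11873 in Starv, a 2.1-fold rise (log2 fold change 1.07, SE 0.11, adjusted p = 4.2e-05). Its partners and relatives Cebpg (1.17), Atf3 (1.16), Atf5 (1.01) and Cebpb (0.90) had log2 fold changes near that value. Ppp1r15a, the phosphatase subunit that removes the eIF2alpha phosphate, reached 1.61, and Ddit4, an inhibitor of mTORC1, reached 1.68. Eif4ebp1, a translational repressor held inactive by mTORC1, reached 1.11. Fgf21, a secreted hormone, was almost silent in FM, with raw counts of 1, 1 and 0, and had 42, 28 and 47 in Starv. The ratio of Starv to FM, scaled by library size, was 57.5, with an exact binomial 95% interval of 15.6 to 481 that covers counting error only. Stc2, a secreted glycoprotein, was the tested member of the list that did not pass, at 282, 334 and 279 against 309, 316 and 335.

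**Figure D2:**
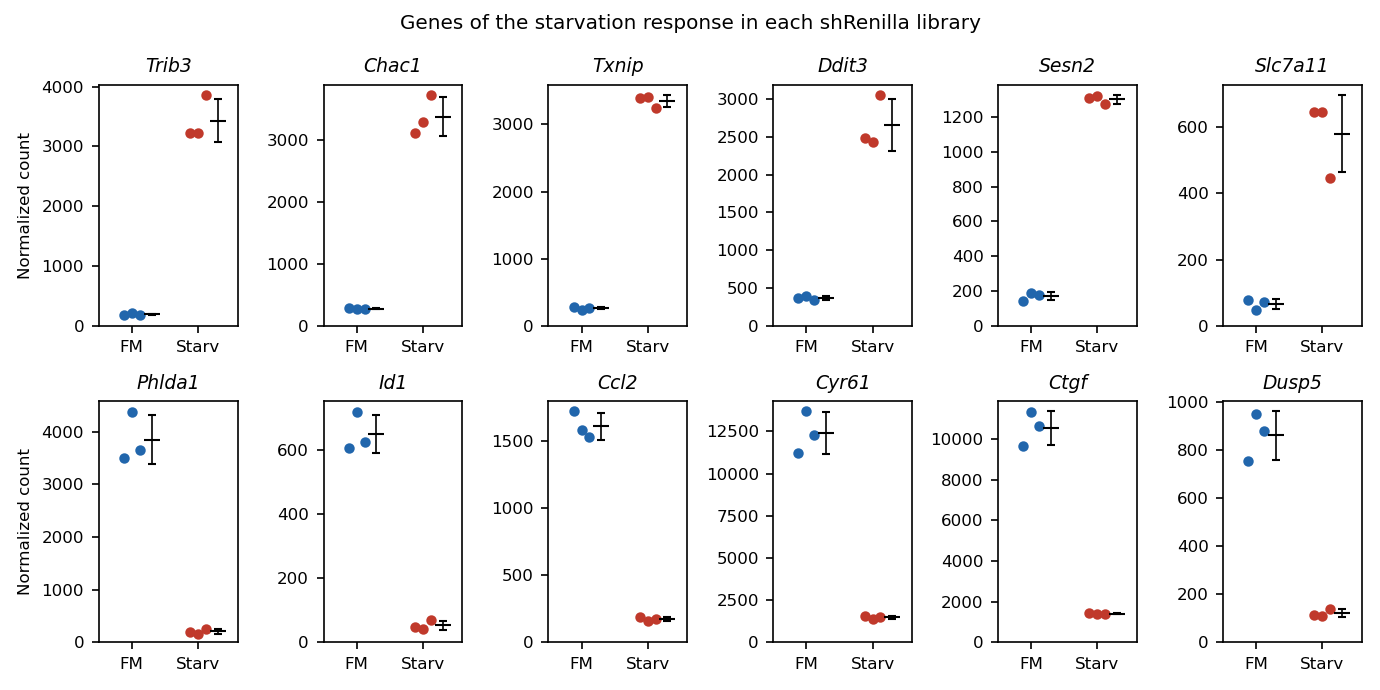
Normalized counts of 12 genes in each of the 3 FM (blue) and 3 Starv (red) libraries of shRenilla MEFs, with the mean and SD in black and linear axes that start at 0. The groups are apart in every panel, which the rule that chose these top genes required and which holds for 52.4% of tested genes. Trib3 is at 182 to 208 in FM and 3223 to 3851 in Starv, and Phlda1 at 3500 to 4369 in FM and 169 to 259.9 in Starv.

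The promoter windows of several of these genes hold the amino acid response element, the sequence that ATF4 and C/EBP dimers bind. RefSeq windows from 250 bases before to 50 bases after the start site (GRCm38.p6) were matched to 9670 of the tested genes and searched on both strands for TGATGNAA. The element was in 4.26% of the 963 windows of genes higher in Starv, in 1.47% of the 680 windows of lower genes and in 2.15% of all tested windows. Among genes higher by a log2 change of at least 1 it was in 6.44% of 388 windows. By list, 6 of 17 windows of ATF4 regulators and effectors held it, 5 of 13 of cytosolic tRNA synthetases, 3 of 13 of amino acid transporters and 3 of 15 of amino acid synthesis enzymes. It was in 4.06% of all 27025 windows of the table. Motifs were searched separately and may overlap. These shares are descriptions, and a match is not a shown binding site. The cyclic AMP response element TGACGTCA was in 3.84% of higher, 4.12% of lower and 3.37% of all tested windows, and in 1.88% of the table.

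Got1 and Slc7a7, counted above as holders of the amino acid response element, did not pass the test and are not shown. Stretches around the element are shown for some genes of these lists that rose, where it lies at different distances from the start site. They lie at chr2:152344011-152344076 (minus strand) for Trib3, chr2:119351019-119351086 (plus strand) for Chac1, chr8:94386287-94386354 (plus strand) for Herpud1, chr1:191183406-191183473 (minus strand) for Atf3, chr3:50443623-50443709 (minus strand) for Slc7a11, chr6:7693195-7693262 (minus strand) for Asns and chr8:111033700-111033888 (plus strand) for Aars. Capitals mark the element in either orientation, 5′ to 3′ on the strand of the gene.
Trib3: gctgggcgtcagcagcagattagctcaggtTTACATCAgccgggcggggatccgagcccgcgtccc
Chac1: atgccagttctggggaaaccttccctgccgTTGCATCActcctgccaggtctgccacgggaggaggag
Herpud1: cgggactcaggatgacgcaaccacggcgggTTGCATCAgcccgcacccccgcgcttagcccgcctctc
Atf3: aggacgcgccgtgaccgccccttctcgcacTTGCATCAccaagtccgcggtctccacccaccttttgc
Slc7a11: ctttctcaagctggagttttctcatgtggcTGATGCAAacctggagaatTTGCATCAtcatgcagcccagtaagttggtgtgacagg
Asns: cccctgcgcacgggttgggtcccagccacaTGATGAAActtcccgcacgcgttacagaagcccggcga
Aars: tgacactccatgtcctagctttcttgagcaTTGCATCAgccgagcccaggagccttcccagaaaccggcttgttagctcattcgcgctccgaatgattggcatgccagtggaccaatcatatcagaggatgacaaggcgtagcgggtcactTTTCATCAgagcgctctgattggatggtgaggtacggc

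Of 19 amino acid transporters tested, 11 were higher and 0 lower, where 9.69% and 7.27% of all genes were called. The other 8 did not pass, and the median log2 fold change was 0.58. The higher count was 8 or 9 without any 1 of the shRenilla libraries and 7 without FM 2 and Starv 3. Slc7a11, the cystine-glutamate exchanger whose window holds the element in both orientations above, had 77.5, 48.1 and 73.5 normalized counts in FM and 646, 646 and 445 in Starv. This is an 8.69-fold rise (log2 fold change 3.12, SE 0.37, adjusted p = 1.1e-04). Its heavy chain partner Slc3a2 went from 4266, 4675 and 4414 to 9839, 10082 and 11768, and the neutral amino acid carrier Slc38a2 from 7053, 5764 and 6665 to 16201, 16434 and 13825, and both rose by 1.25 on the log2 scale. The glycine transporter Slc6a9 (2.24), the serine and alanine carrier Slc1a4 (2.16) and the cationic carriers Slc7a3 (1.31) and Slc7a1 (0.95) also rose. Slc7a5, which imports leucine with Slc3a2, rose by 0.77. The taurine transporter Slc6a6 (-0.35) and the exchanger Slc7a6 (-0.38) did not pass the test.

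Amino acid synthesis and folate enzymes were split. Of 19 tested, 7 were higher and 1 was lower, where 9.69% and 7.27% of all genes were called. The other 11 did not pass, and the median log2 fold change was 0.30. Without FM 2 and Starv 3, 4 were higher. Gpt2, the mitochondrial alanine transaminase, had 443, 483 and 482 normalized counts in FM and 1965, 1959 and 1960 in Starv, a log2 fold change of 2.06 (SE 0.25). The folate enzymes Aldh1l2 (1.85) and Mthfd2 (0.91), the proline enzymes Pycr1 (1.29) and Aldh18a1 (0.84), and the serine enzyme Psph (1.06) rose as well. Asns, the asparagine synthetase, went from 2326, 2592 and 2318 to 4258, 4448 and 4950, a 1.89-fold rise. The serine enzymes Psat1 (0.27) and Phgdh (0.24) and the glycine enzyme Shmt2 (0.30) did not pass.

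Among 20 cytosolic aminoacyl-tRNA synthetases, which charge tRNAs with amino acids, 9 were higher and 1 was lower, with a median of 0.26. The shares over all genes were 9.69% and 7.27%. The higher count of the list was 3 to 6 without 1 of the shRenilla libraries and 1 without FM 2 and Starv 3. Aars, for alanine, went from 6129, 6921 and 6282 normalized counts to 11410, 11638 and 12151, a log2 fold change of 0.86 (SE 0.15, adjusted p = 0.00157). Sars (0.58), Gars (0.56), Nars (0.41) and Yars (0.38) rose by less. Vars (-0.02) and Eprs (0.30) did not pass. The lower gene, Farsa (-0.49), lost its call in 9 of 23 alternatives.

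Chaperones of the unfolded protein response did not follow Ddit3 and Herpud1. Of 20 tested, 1 was higher and 1 was lower, where 9.69% and 7.27% of all genes were called, and the median was -0.15. The higher gene was Dnajb9, a cochaperone of BiP, at 233, 175 and 198 in FM and 662, 794 and 797 in Starv (log2 fold change 1.89, SE 0.23). Hspa5, which encodes BiP itself, was at -0.15 (adjusted p = 0.522), Hsp90b1 at -0.17, Calr at -0.23 and Pdia4 at -0.03. The lower gene, Creld2, was at -0.53, a call lost without FM 1, FM 2, FM 3, Starv 1 or Starv 2 and with upper-quartile scaling. Of 20 NRF2 targets, which serve antioxidant defence, 1 was higher and 1 was lower, beside the same shares over all genes. Their median was -0.15. Hmox1, the heme oxygenase, was the higher gene at 0.70. The lower gene, Txnrd1 (-0.49), lost its call when any shRenilla library other than FM 2 was left out.

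**Figure D3:**
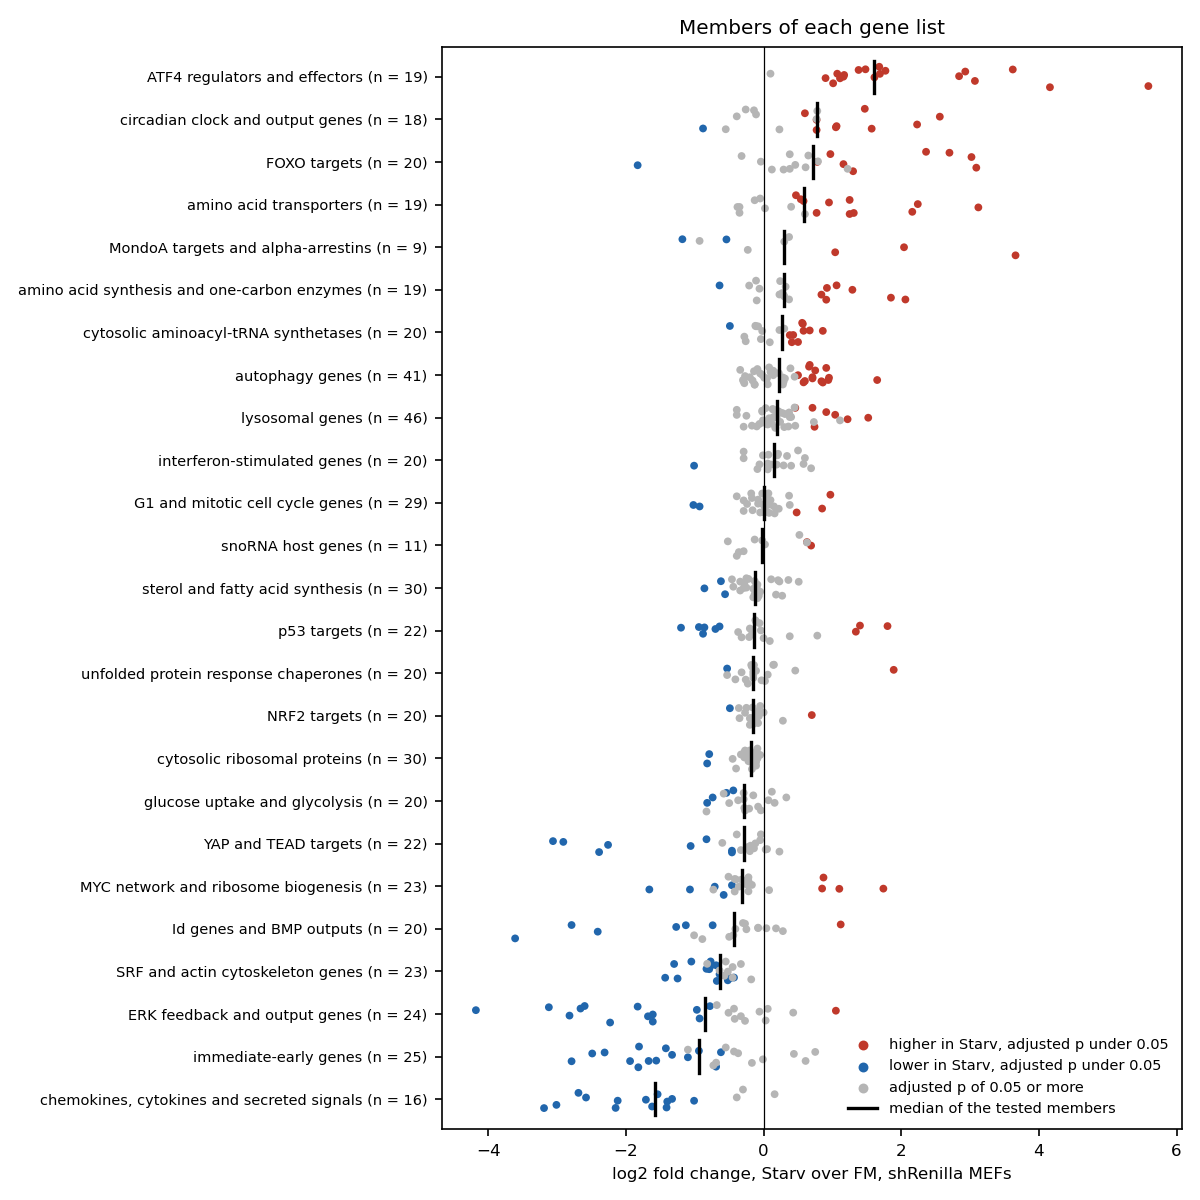
Each point is a tested member of 1 of 25 gene lists, placed by its log2 fold change of Starv over FM in shRenilla MEFs, with the list median as a black bar and the number tested in parentheses. ATF4 regulators and effectors lie farthest to the right with a median of 1.61, and chemokines, cytokines and secreted signals farthest to the left with a median of -1.58.

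Genes listed as FOXO targets, or as MondoA targets and alpha-arrestins, held some of the largest rises, while many members of both lists did not pass. Activity of these factors was not measured. Of 20 FOXO targets, 8 were higher and 1 was lower, where 9.69% and 7.27% of all genes were called. Their median was 0.72. The higher count was 14 with only the shRenilla libraries and 5 without FM 2 and Starv 3. Fbxo32, the ubiquitin ligase subunit atrogin-1, had 96.3, 97.1 and 97.7 normalized counts in FM and 873, 825 and 789 in Starv, an 8.53-fold rise (log2 fold change 3.09, SE 0.15, adjusted p = 1e-07). Ccng2, a cyclin of quiescent cells, went from 246, 188 and 219.6 to 1440, 1430 and 1379 (log2 fold change 2.70, SE 0.23). Pik3ip1, an inhibitor of PI3 kinase, rose by 2.36, Klf15, a transcription factor of fasting metabolism, by 3.02 from 4.9 to 7.17 in FM to 38.9 to 60.9 in Starv, and Irs2, an insulin receptor substrate, by 1.16. Cdkn1b, the cell cycle inhibitor p27, rose by 0.97. Trib1, a relative of Trib3, moved the other way, from 1038, 1074 and 1041 to 281, 306 and 299.9 (-1.83, SE 0.19). Foxo1 (-0.04) and Cited2 (-0.32) did not pass. The FOXO motif GTAAACA was in 4.26% of windows of higher genes, 2.21% of lower genes, 2.37% of all tested genes and 3.55% of the whole table. In the FOXO list itself, 2 of 16 windows held it, those of Sesn1 (0.38) and Bcl2l11 (0.61), which did not pass.

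Txnip, an alpha-arrestin that lowers glucose uptake and binds thioredoxin, lies on chr3:96557957-96561883 (plus strand). It had 279, 242 and 271 normalized counts in FM and 3388, 3409 and 3248 in Starv. This 12.7-fold rise had a log2 fold change of 3.66 (SE 0.38, adjusted p = 3.8e-05). Txnip is known to respond to glucose, whose level in the starvation medium is not given. Its relatives Arrdc4 (2.04) and Arrdc2 (1.04) rose too, while Arrdc3 (-0.93) and Arrdc1 (0.37) did not pass. Of the 9 tested genes in this list, 3 were higher and 2 lower, where 9.69% and 7.27% of all genes were called. Mlx, the partner of MondoA, fell from 974, 929 and 955 to 411, 373 and 476 (-1.18, SE 0.13), and Mlxip, which encodes MondoA, was at -0.23 and did not pass. Hk2, a hexokinase, was lower at -0.54, a call lost without any 1 of the shRenilla libraries. In the list of glucose uptake and glycolysis, 0 of 20 were higher and 4 lower, with a median of -0.28, where 7.27% of all genes were lower. Slc2a1, the basal glucose transporter, fell from 1330, 1442 and 1345 to 751, 745 and 830.2 (-0.82, SE 0.12). The other calls of this list, Hk2, Gapdh and Ldha, were each lost when any of several single libraries was left out, and Gapdh was counted at 41.5 to 89.6 only, a gene with many near-identical pseudogenes whose value is uncertain.

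Some of the genes with the largest rises belonged to none of the lists. Klhl24, an adaptor of a ubiquitin ligase, had 325, 225 and 301 normalized counts in FM and 2946, 2895 and 2249 in Starv (log2 fold change 3.25, SE 0.29). Crebrf, a regulator of CREB3-type factors, went from 279, 225 and 265 to 2062, 2066 and 1545 (2.88, SE 0.19). Klf11, a Kruppel-like factor, went from 95.5, 82.1 and 106 to 792, 749 and 768 (3.02, SE 0.24). Adck3, needed for coenzyme Q synthesis, rose by 3.30 from 6.6 to 11.4 in FM to 85.7 to 89.5 in Starv. Acot2, a mitochondrial acyl-CoA thioesterase, rose by 2.91.

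The largest fall among all tested genes was that of Phlda1. Phlda1, a pleckstrin-homology gene of growth factor signalling on chr10:111506286-111508645 (plus strand), had 3500, 4369 and 3653 normalized counts in FM and 207, 169 and 259.9 in Starv. It was 18.1-fold higher in FM (log2 fold change -4.18, SE 0.35, adjusted p = 6.4e-06). Of 24 ERK feedback and output genes, 13 were lower and 1 was higher, where 7.27% and 9.69% of all genes were called. The median was -0.85, and 11 were lower without FM 2 and Starv 3. The cytokine Lif went from 1059, 1134 and 1153 to 137, 131 and 117 (-3.12, SE 0.19), and the ERK phosphatase Dusp5 from 753, 952 and 879 to 114, 112 and 141 (-2.82, SE 0.31). The EGF receptor ligands Ereg (-2.66), Hbegf (-2.60) and Areg (-1.83) fell together with Errfi1 (-2.23), which inhibits that receptor. The feedback inhibitors Spry2 and Spry4 both fell by 1.61 on the log2 scale. Dusp6 (-0.78), Dusp7 (-0.97) and the cyclin Ccnd1 (-0.93) fell by less. The higher gene, Etv1 (1.05), is a transcription factor counted at 16 to 43.9, and its call was lost without FM 2, FM 3, Starv 1 or Starv 2. Spred1 (-0.06), Spred2 (0.03) and Etv5 (0.06) were among those that did not pass.

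Immediate-early genes, which serum induces within minutes without new protein, were lower in 14 of 25 cases and higher in 0, with a median of -0.94. Of all genes tested, 7.27% were lower and 9.69% higher. The lower count of the list was 9 without FM 2 and Starv 3. Ier3 went from 805, 981 and 775 normalized counts to 121, 118 and 132 (-2.79, SE 0.25), and the nuclear receptor Nr4a1 from 656, 771 and 665 to 124, 113 and 135 (-2.49, SE 0.16). Every FM library was above every Starv library in both genes, as in every gene called lower. Among AP-1 subunits, Fosb (-2.31), Jun (-1.82), Fosl1 (-1.81), Fosl2 (-1.67), Junb (-1.42) and Fos (-1.10) fell, while Jund (-0.55) did not pass. Egr2 (-1.56) and Egr3 (-1.94, a call lost without Starv 2) fell, and Egr1 at -0.17 did not pass. Klf6 (-0.01) and Klf4 (0.61) did not pass either. Myc, with 2838, 3056 and 2986 in FM and 1725, 1783 and 1861 in Starv, had a log2 fold change of -0.73 (SE 0.28, adjusted p = 0.0941). Its counts in shBruce Starv, which also enter this SE, were 674, 1008 and 1842. The AP-1 motif TGANTCA was in 5.44% of windows of lower genes, 5.92% of higher genes, 4.65% of all tested genes and 7.93% of the table.

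Chemokines, cytokines and secreted signals had the lowest median of the 25 lists, -1.58, a rank that is likewise only a description. Of 16 tested, 13 were lower and 0 higher, where 7.27% and 9.69% of all genes were called. The lower count was 11 without FM 2 and Starv 3. Ccl2, which attracts monocytes, had 1716, 1576 and 1523 normalized counts in FM and 189, 162 and 177 in Starv, 9.11-fold higher in FM (-3.19, SE 0.27, adjusted p = 6.4e-06). Its neighbour Ccl7 fell by 2.69 on the log2 scale. Has2, the hyaluronan synthase, fell by 3.01 on the log2 scale. Ptgs2, the inducible prostaglandin synthase, fell by 2.58, from 6015, 5070 and 6282 to 980, 1081 and 851. Csf1 (-1.71) and the plasminogen activation genes Plaur (-2.15) and Plau (-1.40) fell as well. Vegfa (0.16), Cxcl12 (-0.39) and Ccl5 (-0.30) did not pass. Cxcl10, an interferon-induced chemokine, was lower at -1.01. It was the only call among 20 interferon-stimulated genes, whose median was 0.15, where 17.0% of all genes were called in either direction.

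Other genes with large falls were outside these lists. Rgs16, which shuts off G protein signalling, went from 576, 635 and 596 to 39.9, 49.3 and 43.8 (-3.76, SE 0.25, adjusted p = 8.4e-07). Sema7a, a membrane-anchored semaphorin, went from 536, 608 and 583 to 64.6, 64 and 68.5 (-3.13, SE 0.36). Socs1, a feedback inhibitor of JAK kinases, went from 229, 222 and 190 to 24.7, 20.8 and 35.2 (-2.99, SE 0.32). That the media do not overlap in these and the other top falling genes, and in the top rising genes, follows from the rule that chose them. Wnt7a, a Wnt ligand, fell by 2.79 with an SE of 0.59.

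Id genes encode inhibitors of basic helix-loop-helix factors and are classical outputs of BMP signalling. Of the 4 Id genes, Id1, Id2 and Id3 were lower. Id1 lies on chr2:152736251-152737410 (plus strand) and had 605, 719 and 626 normalized counts in FM and 49.5, 41.5 and 68.5 in Starv, 12.2-fold higher in FM (-3.61, SE 0.19, adjusted p = 1e-07). Id2 went from 535, 442 and 471 to 55.9, 75.3 and 79 (-2.79, SE 0.20), and Id3 from 1149, 1252 and 1068 to 199, 207 and 247 (-2.41, SE 0.23). The groups were apart in all of these, as in every called gene and in 52.4% of all genes tested. Id4 at -0.27 did not pass. Of 20 genes in the list, 6 were lower and 1 higher, where 7.27% and 9.69% of all genes were called. The list median was -0.42. Smad7, the inhibitory SMAD, fell by 1.27 on the log2 scale, Msx1 by 1.13 and the pseudoreceptor Bambi by 0.74, while Smad6 was at -0.08. Smad9, a receptor-regulated SMAD, was higher at 1.12, a call lost without FM 1, FM 2, FM 3, Starv 1 or Starv 2.

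Targets of YAP and TEAD were lower in 8 of 22 cases and higher in 0, where 7.27% and 9.69% of all genes were called. Their median was -0.28. The lower count was 5 without any 1 of the shRenilla libraries and 4 without FM 2 and Starv 3. The matricellular genes led the list. Cyr61 had 11220, 13689 and 12314 normalized counts in FM and 1563, 1414 and 1479 in Starv (-3.06, SE 0.39, adjusted p = 1.8e-04). Ctgf went from 9650, 11306 and 10625 to 1430, 1383 and 1389 (-2.91, SE 0.37). F3, tissue factor, fell by 2.39 and the cardiac ankyrin repeat gene Ankrd1 by 2.26. The receptor Axl (-0.19), the angiomotins Amotl1 (-0.20) and Amotl2 (-0.21) and the kinase Lats2 (-0.14) did not pass. The TEAD motif GGAATG was in 8 of the 16 windows of this list, against 11.7% of all tested windows and 14.6% of the table, and in 11.6% of windows of lower and 12.4% of higher genes. Among its holders in the list, Cyr61, Ankrd1 and Ajuba were lower, while Amotl2, Lats2, Crim1, Axl and Ptpn14 did not pass.

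Serum response factor (SRF) drives genes of the actin cytoskeleton. Of 23 tested, 14 were lower and 0 higher, where 7.27% and 9.69% of all genes were called, and 9 did not pass. The median was -0.64, with a range of -1.43 to -0.18. The lower count was 8 or 9 without any 1 of the shRenilla libraries, 7 without FM 2 and Starv 3 and 22 with only the shRenilla libraries. Srf itself had 1949, 2217 and 2102 normalized counts in FM and 789, 729 and 799.7 in Starv (-1.43, SE 0.14, adjusted p = 2.7e-05). The focal adhesion genes Fhl2 (-1.30), Zyx (-1.05), Vcl (-0.52) and Tgfb1i1 (-0.79) and the calponin Cnn2 (-0.83) fell. Actb, cytoplasmic beta-actin, had 91740, 103499 and 90030 normalized counts in FM and 48892, 52334 and 60079 in Starv. Its log2 fold change of -0.82 (SE 0.27) stood at an adjusted p of 0.0503 and did not pass. The groups did not overlap, as for 52.4% of all genes tested. Its counts in shBruce Starv, which also enter this SE, were 144989, 93004 and 51781. Actg1, at -1.25, was counted at 100 to 262 only and shares sequence with near-identical copies, so its value is uncertain. Flna (-0.18) and Acta2 (-0.45) did not pass.

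The CArG box, named here by its name and searched on both strands, is the sequence to which SRF binds. It was in 8 of 20 promoter windows of this list, and of these genes Myl9 and Fhl1 did not pass while the others were lower. The share was 3.09% of windows of lower genes, 1.35% of higher genes, 1.35% of all tested genes and 1.57% of the table. Stretches are shown for Srf, where it occurs in tandem, and for Cnn2, as examples from genes that fell. They lie at chr17:46556185-46556274 (minus strand) for Srf and chr10:79988514-79988583 (plus strand) for Cnn2, with the box in capitals.
Srf: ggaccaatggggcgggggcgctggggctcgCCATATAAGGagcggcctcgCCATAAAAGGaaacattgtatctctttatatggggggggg
Cnn2: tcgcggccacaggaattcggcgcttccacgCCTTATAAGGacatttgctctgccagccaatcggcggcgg

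**Figure D4:**
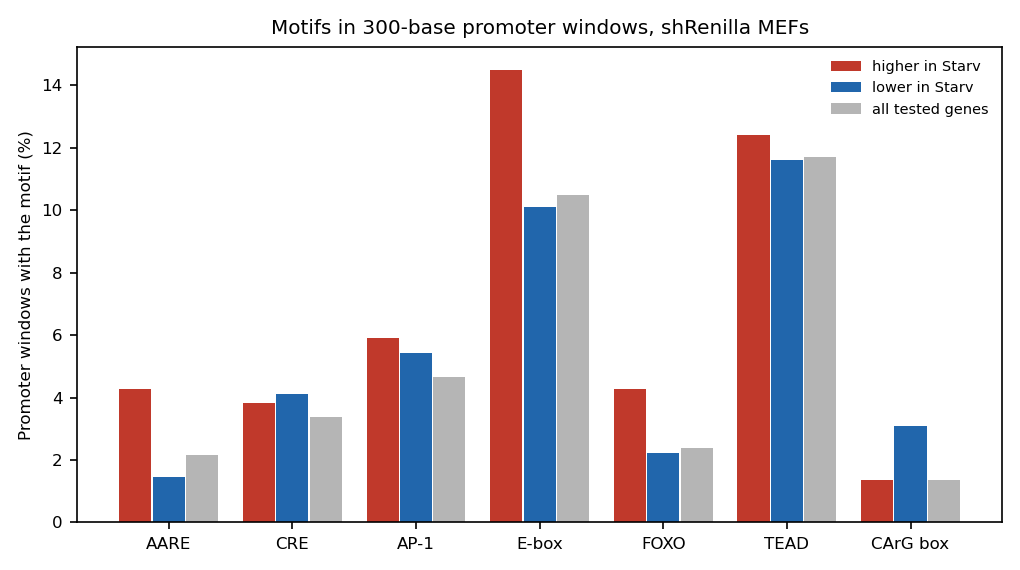
Percent of 300-base RefSeq promoter windows with each motif on either strand, for genes higher in Starv (963 windows), lower in Starv (680) and all tested genes (9670), with bars from 0. The amino acid response element (AARE) is at 4.26%, 1.47% and 2.15%, and the CArG box at 1.35%, 3.09% and 1.35%.

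Autophagy genes rose in part. Of 41 tested, 14 were higher and 0 lower, where 9.69% and 7.27% of all genes were called. The median was 0.22, and 7 were higher without FM 2 and Starv 3. By steps of the pathway, the initiation kinases Ulk1 (0.71) and Ulk2 (0.66) and their partner Atg13 (0.94) rose, while Rb1cc1 (0.39) and Atg101 (0.08) did not pass. In the lipid kinase complex that nucleates the membrane, Atg14 led with 256, 267 and 282 normalized counts in FM and 848, 871 and 814 in Starv, a 3.15-fold rise (1.65, SE 0.12, adjusted p = 1.6e-06). Pik3c3 (0.58) and Pik3r4 (0.50) of the same complex rose by less and Becn1 (-0.14) did not pass. The conjugation factor Atg12 rose by 0.75, and Atg3, Atg5 and Atg7 were at -0.16, 0.01 and 0.14. Among ATG8 genes, which coat the membrane, Map1lc3b (0.71) and Gabarapl1 (0.60) rose, and Gabarap (-0.05), Gabarapl2 (-0.34) and Map1lc3a (-0.13) did not pass. The cargo receptors Sqstm1, Nbr1 and Calcoco1 rose by 0.95, 0.91 and 0.84. Sqstm1, which encodes p62, went from 5924, 6660 and 5941 to 11592, 11333 and 12780.

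Of 46 lysosomal genes tested, 7 were higher and 0 lower, where 9.69% and 7.27% of all genes were called, with a median of 0.20. The count was 5 without any 1 of the shRenilla libraries, 4 without FM 2 and Starv 3 and 21 with only the shRenilla libraries. The folliculin complex, which relays amino acid supply to mTORC1, led the list. Fnip1 went from 1578, 1113 and 1407 normalized counts to 4190, 4252 and 3305 (1.52, SE 0.20), Fnip2 rose by 1.22, and Flcn went from 1020, 1030 and 1028 to 2062, 1829 and 1906 (0.91, SE 0.15). The hydrolases Idua (1.04), Gla (0.71), Ctsf (0.74) and Sgsh (0.46) were the other calls. Lamp1 (0.08), Psap (0.08), Ctsb (-0.01) and Ctsd (-0.06), among the most abundant, did not pass, nor did Tfeb (-0.39) and Tfe3 (-0.01). The E-box CACGTG, within which TFEB and MYC-type factors bind, was in 14 of 38 windows of this list, against 10.5% of all tested windows, 14.5% of higher genes, 10.1% of lower genes and 7.24% of the table. Among its holders in the list, Ctsf, Gla, Sgsh and Fnip1 were higher, and the others, Lamp1 and Ctsd included, did not pass.

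In the list of the MYC network and ribosome biogenesis, 4 of 23 tested genes were higher and 5 lower. The shares over all genes were 9.69% and 7.27%, and the list median was -0.32. Mnt, a repressor that competes with MYC for MAX, had 412, 517 and 500.1 normalized counts in FM and 1610, 1602 and 1577 in Starv (1.74, SE 0.13, adjusted p = 1.9e-06). Mxi1 (1.10), Mxd1 (0.87) and Mxd4 (0.85) were the other higher genes and are MYC antagonists like Mnt, while their relative Mxd3 (0.08) did not pass. Without FM 2 and Starv 3, 2 were higher, and Mxd1 and Mxd4 lost their calls. The 5 lower genes serve ribosome production. Ppan went from 2255, 2690 and 2170 to 688, 694 and 867 (-1.66, SE 0.20), and Rrs1 fell by 1.07 on the log2 scale. The lower count was 2 or 3 without any 1 of the shRenilla libraries and 15 with only these libraries. Ncl (-0.22) and Npm1 (-0.17) did not pass. Among 30 cytosolic ribosomal proteins, 0 were higher and 2 lower, where 9.69% and 7.27% of all genes were called. Their median was -0.18, with a range of -0.82 to -0.05, and it was -0.10 with upper-quartile scaling. Both calls, Rpl3 and Rpl10a, were counted at 86.5 to 354 only, genes with near-identical copies, and are uncertain.

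The clock genes had a median of 0.77, with 9 of 18 higher and 1 lower, where 9.69% and 7.27% of all genes were called. Without FM 2 and Starv 3, 6 were higher. Rora, a nuclear receptor that drives Bmal1, had 46.5, 34.9 and 41.2 normalized counts in FM and 258, 270 and 197 in Starv (2.56, SE 0.28). Ciart, a transcriptional repressor, went from 84.1, 97.1 and 81.6 to 362, 398 and 478 (2.23, SE 0.19). Dbp (1.57), Per3 (1.47), Nr1d2 (1.05), Cry2 (0.77) and Tef (0.60) rose, and Bhlhe40 fell by 0.88. Per1 (-0.11), Per2 (-0.39), Clock (-0.26) and Arntl (0.23) did not pass. Each medium was sampled at a single time, so a shift in time of day cannot be told apart from a change in level.

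Calls among cell cycle genes were close to the shares over all genes. Of 29 tested, 3 were higher and 2 lower, where 9.69% and 7.27% of all genes were called. Their median was 0.01, with a sign that changed with the processing. The D-type cyclins Ccnd3 and Ccnd1 fell by 1.02 and 0.93, and Cdkn1b rose, as given above. Mki67 (-0.01), Top2a (-0.08) and Pcna (0.16) did not pass. Of 22 p53 targets, 3 were higher and 6 lower, with a median of -0.14, where 9.69% and 7.27% of all genes were called. The lower count was 3 without FM 3, Starv 1 or Starv 2, 4 without FM 1 or FM 2 and 2 without both FM 2 and Starv 3. The proapoptotic Bbc3, which encodes PUMA, went from 115, 119 and 100.4 to 274, 251 and 321 (1.34, SE 0.15), and Trp53inp1 rose by 1.40. Plk2 went from 7793, 8011 and 7744 to 3456, 3535 and 3242 (-1.20, SE 0.22). Cdkn1a (0.09) and Mdm2 (-0.17) did not pass. Of 30 sterol and fatty acid genes, 0 were higher and 3 lower (median -0.13), where 7.27% of all genes were lower. The lower count was 0 without Starv 2, 0 without FM 2 and Starv 3 and 11 with only the shRenilla libraries. Fasn, the fatty acid synthase, was among the lower genes at -0.56, and its call was lost when any shRenilla library other than FM 1 was left out. Of 11 tested snoRNA host genes, 2 were higher, where 9.69% of all genes were higher (median -0.02, with a sign that changed with the scaling). These were Snhg12 (0.69) and Snhg5 (0.63), both lost without FM 3.

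The response of shRenilla MEFs was set beside that of shBruce MEFs, in which 2790 genes (23.0%) passed, 1506 higher and 1284 lower. These comparisons share no libraries, but they share the estimate of spread. Of the 1178 genes higher in shRenilla Starv, 1167 had the same sign in shBruce MEFs, and 866 passed there too, 73.5% of the shRenilla list and 57.5% of the shBruce list. Of the 883 lower genes, 874 had the same sign, and 670 passed, 75.9% and 52.2% of the lists. No gene passed in opposite directions. The correlation of the log2 fold changes over all tested genes was 0.78, a description across genes, which are not independent. Trib3 reached 3.92 in shBruce MEFs against 4.16, Chac1 3.41 against 3.62, Txnip 4.34 against 3.66, Phlda1 -3.21 against -4.18 and Id1 -3.06 against -3.61.

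The interaction of line and medium called 0 genes (0%) in edgeR, with 474 at an unadjusted p below 0.05 and a smallest adjusted p of 0.806. DESeq2 and limma-voom also called 0, with 534 and 432 at an unadjusted p below 0.05. A p that misses the threshold does not show that the lines responded alike. For Trib3 the difference of shBruce from shRenilla MEFs was -0.24 with a 95% interval of -0.77 to 0.29. Among called genes, 4933431E20Rik, a noncoding RNA, had the smallest unadjusted p. It had 24.5, 21.7 and 20.6 normalized counts in FM and 59.9, 68.4 and 57.1 in Starv in shRenilla MEFs, and 40.4, 41.9 and 40.7 against 40.3, 39.5 and 51.1 in shBruce MEFs. Its difference was -1.36 (95% interval -1.95 to -0.77, adjusted p = 0.806).

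**Figure D5:**
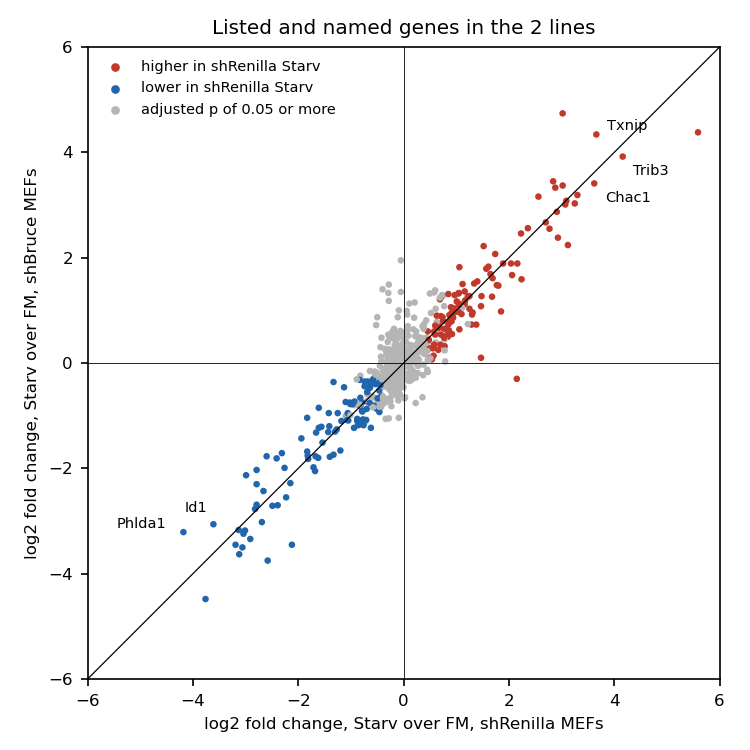
Log2 fold change of Starv over FM in shRenilla MEFs and in shBruce MEFs for the listed and named genes, coloured by the call in shRenilla MEFs, with the diagonal of equal change. Trib3 (4.16 and 3.92), Chac1, Txnip, Phlda1 and Id1 are labelled, and called genes lie on the same side of 0 in both lines with few exceptions.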

How the data were processed

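The 12 RNA-Seq libraries (shRenilla and shBruce MEFs, each in FM and Starv, 3 per group) were grouped by their titles. The authors isolated total RNA, selected poly(A) transcripts, read them from a single end for 50 bases, removed rRNA reads, aligned with STAR 2.4.0d to mm10 and counted with HTSeq 0.5.4p3. Annotation and strand setting are not given in the sources used here, so overlapping and antisense genes may share reads. The deposited table holds raw counts without normalization for 24062 symbols. In it, 27 symbols had become dates (0.296% of counts) and are not named. Positions are from GENCODE M21 (GRCm38).

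The main fit used edgeR 4.0.16 (R 4.3.3) on these counts, with TMM factors, the filterByExpr filter and 1 mean per group over all 12 libraries. Quasi-likelihood p-values were two-sided and adjusted by Benjamini and Hochberg's method across every tested gene, with a threshold of 0.05. Normalized counts are counts divided by effective library size. Replicates differed beyond counting error, with a chi-square per degree of freedom of 2.18 to 18.7 in shRenilla MEFs and 8.35 to 92.3 in shBruce MEFs. The library shBruce Starv 1 held 7717265 counts. Precision is therefore given as the SE of the fit, which rests on all 12 libraries. Alternatives used DESeq2 1.42.0, limma 3.58.1, other scalings and filters, a replicate block and omitted libraries. The fit was tested on simulated data.

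The 25 gene lists were written from general knowledge, and members, lists and tests were chosen with earlier results of these data known. Named are Trib3, Chac1, Txnip, Phlda1 and Id1, up to 15 rising and 15 falling genes with the largest change (mean of at least 50 in the higher medium, groups apart), up to 4 rising, 4 falling and 2 uncalled genes of each list, Birc6 and 3 genes with the smallest interaction p. Other list members were named after their values were seen. Some genes that this rule selects are not reported here. Figures were made with matplotlib 3.10.9.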

Additional observations from a re-analysis of the deposited data

How the results depend on the processing

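Of the 118 called named genes, 95 kept direction and call in every alternative except the one without both FM 2 and Starv 3, chosen after seeing the data, where 38 calls were lost. No named gene reversed. The count of genes changed by starvation in shRenilla MEFs was 2061. It was 1887 to 2564 with DESeq2 size factors, upper-quartile factors, DESeq2's test, limma-voom or other filters. It was 2940 (1382 higher, 1558 lower) with length and GC trends removed, 5013 with only the 6 libraries of the line, 703 without FM 2 and Starv 3, and 726 at a log2 change of at least 1. The fit of 6 libraries estimates the spread from those libraries alone, and the cause of these shifts was not tested. Without 1 library the count ranged from 1149 (without shRenilla Starv 2) to 3212 (without shBruce Starv 1). The values were 1224, 1198 and 1199 without FM 1, 2 and 3, 1153 without Starv 1, and 3131 without shBruce Starv 3. For shBruce MEFs, 2790 genes became 956 with its 6 libraries alone and 1855 (without shBruce FM 2) to 4009 (without shBruce Starv 3) without 1 library. The interaction called 0 genes in edgeR under every alternative, and in DESeq2 and limma-voom, with 205 to 3028 genes at an unadjusted p below 0.05.

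Replicate numbers gave no pairing. The correlation of same-numbered deviations was 0.106, -0.386 and -0.406 in shRenilla MEFs and 0.0132, 0.0303 and 0.119 in shBruce MEFs. With the replicate block, 1770 genes were called in the joint fit and 3731 in the 6 libraries of shRenilla MEFs, and 770 in those of shBruce MEFs.

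The median SE of the log2 fold change was 0.18, which limits the smaller changes that could pass.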

Other observations

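Noncoding and little-studied transcripts were also among the genes with large changes. A930024E05Rik, annotated on chr5:122989354-122998345 (plus strand), had 9.8, 4.72 and 9.86 normalized counts in FM and 55.1, 54.5 and 60 in Starv, a log2 fold change of 2.77 (SE 0.27). Gm6297 had 4.9, 1.89 and 2.69 against 15.2, 13.8 and 15.2 in shRenilla MEFs, and 10.6, 10.5 and 6.94 against 6.05, 8.54 and 7.43 in shBruce MEFs, where its log2 fold change was -0.30. It was named for its small unadjusted p in the interaction of line and medium, where its adjusted p was 0.806. Cd300lb, a receptor of myeloid cells, had 109, 91.5 and 108 in FM and 12, 14.7 and 10.5 in Starv (-3.04, SE 0.44). Macrophage markers summed to 72.4 to 104, carried by Cd68, with Ptprc at 0.943 to 6.66 and Csf1r at 1.6 or less. Their part in the value of Cd300lb was not tested. Bhlhe41, a clock repressor, rose by 1.06 in shRenilla MEFs and 1.82 in shBruce MEFs, a difference of 0.76 (95% interval 0.36 to 1.16, adjusted p = 0.806).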
